A study of Mus musculus with 24 samples.

Results

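The receptors for activin, BMP and TGF-beta are described here at the level of their mRNA in wild-type and Smad2 knockout mouse embryonic stem cells. They are 10 genes, taken by symbol: the type I receptors Acvr1b, Tgfbr1, Acvr1 and Bmpr1a, the type II receptors Acvr2a, Acvr2b, Bmpr2 and Tgfbr2, and the co-receptors Tgfbr3 and Eng. All 10 were present in both results tables, which hold 19780 genes for control cells and 19979 genes for paused cells, 19134 of them in common. Poly(A) RNA came from E14 cells, a mouse embryonic stem cell line, grown on gelatin in serum with LIF. The labels name 6 groups with 4 samples in each. Wild-type cells, Smad2 knockout line KO1 and Smad2 knockout line KO2 were each kept for 12 h in control medium or with 200 nM INK128, an inhibitor of the kinase mTOR used to put such cells into a paused state. The knockout was therefore seen in 2 lines only, and how each line was derived is not given in the sources used here.

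These receptors work in complexes. A dimeric ligand brings type II receptors, whose kinases are always active, together with type I receptors, which they phosphorylate and switch on. The activated type I receptor then phosphorylates Smad proteins: Acvr1b and Tgfbr1 act on Smad2 and Smad3, the route of Nodal, activin and TGF-beta, while Acvr1 and Bmpr1a act on Smad1, Smad5 and Smad9, the route of BMP. Co-receptors such as betaglycan (Tgfbr3) and endoglin (Eng) bind ligand and present it to the signalling receptors without a kinase of their own. In mouse embryonic stem cells Nodal and activin act through the first route, and BMP helps to hold back neural differentiation through the second. The series title places Nodal and Smad2 in the maintenance of pausing, so the receptor comparison asks whether the upstream end of the pathway changed at the mRNA level in the Smad2 knockout lines.

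The Smad that a type I receptor selects depends on a short loop in its kinase domain, called the L45 loop, and the coding sequence of that loop is shown to compare the 4 type I receptors there. The sequences are from GENCODE M21 transcripts on GRCm38, read 5′ to 3′ on the coding strand, 51 bases each. Capitals mark the 27 bases (9 codons) of the loop.
Acvr1b: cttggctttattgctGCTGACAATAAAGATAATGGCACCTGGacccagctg
Tgfbr1: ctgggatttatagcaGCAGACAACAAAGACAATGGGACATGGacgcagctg
Bmpr1a: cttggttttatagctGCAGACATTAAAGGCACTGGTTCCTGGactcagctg
Acvr1: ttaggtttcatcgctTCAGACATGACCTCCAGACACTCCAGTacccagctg

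The loops of Acvr1b and Tgfbr1 shared 22 of 27 bases and coded for the same residue at 9 of 9 codons. Acvr1b and Bmpr1a shared 20 bases and 5 residues, and Acvr1b and Acvr1 shared 11 bases and 1 residue. Tgfbr1 gave the same counts as Acvr1b against Bmpr1a and against Acvr1. The receptors of the BMP route, Acvr1 and Bmpr1a, shared 14 bases and 2 residues, fewer than Bmpr1a shared with Acvr1b or Tgfbr1. In each gene the 51 bases cross an exon junction. They span chr15:101198987-101202000 on the plus strand in Acvr1b (exons 4 and 5) and chr4:47396558-47402825 on the plus strand in Tgfbr1 (exons 4 and 5). In Bmpr1a they span chr14:34422811-34424949 on the minus strand (exons 9 and 10), and in Acvr1 chr2:58463110-58468517 on the minus strand (exons 7 and 8).

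The authors deposited 1 results table per condition, in which each gene has a mean normalized count, a log2 change with its standard error, and a p. Single libraries are not listed. The depth of a library is therefore unknown, KO1 and KO2 cannot be told apart, and spread is known only through the standard error. Which genotype is the numerator is not named, and knockout over wild type is the reading used here, since the targeted gene is then lower. The authors' deposited tables give Smad2 a change of -0.35 (SE 0.07) in control cells and -0.63 (SE 0.06) in paused cells, so its mRNA stood at 78.6% and 64.6% of the wild-type level. Most of the Smad2 transcript was thus still counted, and the tables do not show whether functional Smad2 was lost. With the opposite reading every direction given here would turn around. Nothing in the sources used here says that the 4 samples of a group came from separate cultures, so the p-values may measure technical spread. In the authors' deposited tables all 10 embryonic stem cell markers listed were present, with means between 8797 and 51710 normalized counts in control cells and between 4662 and 44100 in paused cells. The 6 primitive endoderm markers summed to 486 and 570 normalized counts in the authors' deposited tables, against 248362 and 222365 for the stem cell markers, and 5 of the 6 were called higher in the knockout in each condition. The fibroblast markers summed to 813 and 789 in the authors' deposited tables, with Lum in neither and Dcn in the control table alone, and 4 and 3 of them were called lower. The trophoblast markers summed to 13072 and 14092 in the authors' deposited tables, with 1 called higher in each condition and 2 and 1 called lower. Most of that sum came from Krt8, at 6942 and 7552, and Tfap2c, at 5071 and 5499 normalized counts in the authors' deposited tables, levels that in paused cells exceed the lowest stem cell marker. Of the stem cell markers, 3 were called higher and 2 lower in control cells, and 3 higher and 1 lower in paused cells. Over all genes 19.5% and 20.5% were called higher, and 21.9% and 22.0% lower.

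The receptors differed in abundance by more than their changes did. Levels between genes are compared as the mean normalized count, taken over wild type and knockout, per kilobase of annotated exon, and no error can be given for them without the libraries. Acvr2b, the type II receptor that binds Nodal and activins, had the highest level of the 10, at 895 counts per kb in control cells and 1371 in paused cells. Bmpr1a, the main BMP type I receptor of the early embryo, followed in control cells with 584, and Eng had 560, an order that turned when the length of the longest transcript was used (623 and 662). Tgfbr1 had 379 counts per kb and Acvr1b had 278. The type II receptor Acvr2a was lower at 130, and the type I receptor Acvr1 had 76.3 counts per kb.

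Bmpr2, the BMP type II receptor, had 50.7 counts per kb in control cells, Tgfbr3 had 36.2 and Tgfbr2, the type II receptor that TGF-beta needs, had 7.78. Tgfbr2 was thus last among the 10 per length, although Tgfbr1, the type I partner of Tgfbr2 in the TGF-beta complex, ranked 4 of 10. In paused cells the order began with Acvr2b, Eng with 616 and Acvr1b with 551, and ended with the same 5 genes in the same order: Acvr2a with 172, Acvr1 with 72.5, Bmpr2 with 51.6, Tgfbr3 with 27.9 and Tgfbr2 with 12.4 counts per kb. Under the reading of knockout over wild type, the last places depend on pooling the genotypes. With the wild-type level estimated alone, the paused order ended with Tgfbr2 at 18.6 and Tgfbr3 at 16.1 counts per kb. Acvr1b (580) then stood above Eng (487), while the control order was the same. The estimate was not made with the opposite reading, under which these exchanges of place need not hold. The plot of levels per kb shows these values on a log axis. The authors' deposited means behind them, not divided by length, were lowest for Tgfbr2, with 63.7 normalized counts (control) and 102 (paused).

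**Figure D1:**
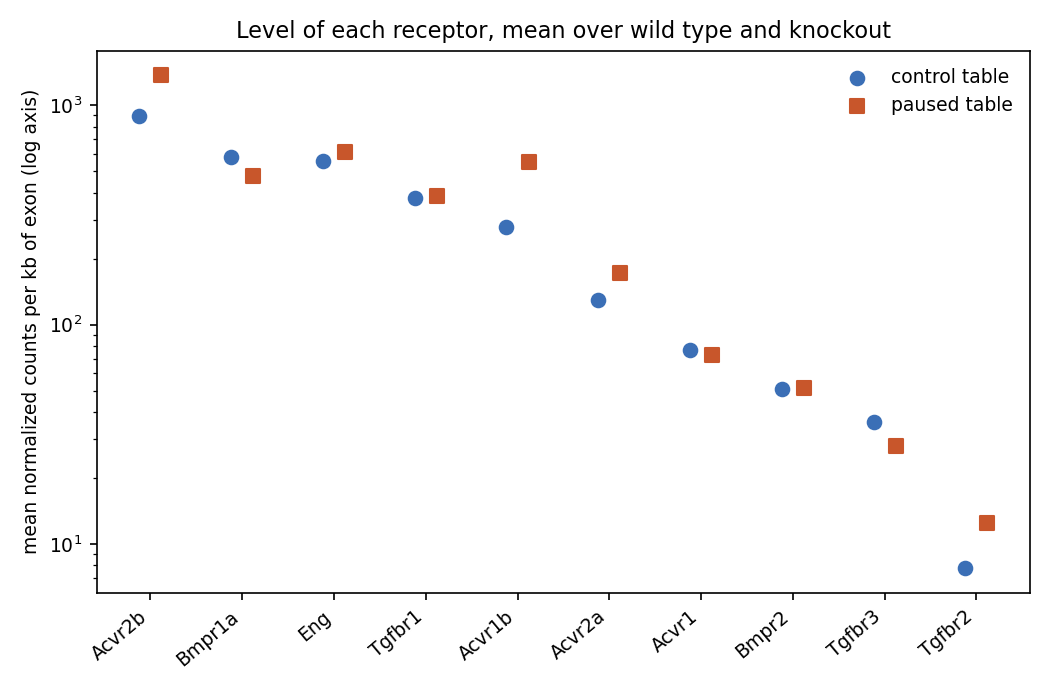
Level of each receptor in both conditions: the vertical axis gives mean normalized counts per kb of annotated exon on a log scale, with circles for the control table and squares for the paused table, each a mean over wild type and knockout with no error available. Acvr2b lies highest in both tables (895 and 1371) and Tgfbr2 lowest (7.78 and 12.4), and Acvr1b has the widest gap between the tables (278 and 551).

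In control cells both co-receptors were higher in the Smad2 knockout lines and 2 type II receptors were lower. Eng rose by 0.54 (SE 0.10) and Tgfbr3 by 0.52 (SE 0.14) in the authors' deposited table, while Tgfbr2 (-1.52, SE 0.28) and Acvr2b (-0.32, SE 0.04) fell. Tgfbr1 also passed the threshold with a rise of 0.08 (SE 0.03, adjusted p 0.0464) in the authors' deposited table, or 1.06-fold. Only 0.4 percent of the 500 genes nearest in mean count had a smaller standard error than Tgfbr1. The remaining 5 receptors did not pass. By the authors' deposited adjusted p, 5 of the 10 receptors were under 0.05, and so were 41.4% of all 19778 genes tested, so the share of receptors called was near that of any gene. Of the 5, 3 were higher and 2 lower, where 19.5% of all genes were called higher and 21.9% lower. The median of the 10 changes was -0.02, that of all genes tested 0.00087.

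In paused cells the same 4 receptors were called, in the same directions. Tgfbr3 rose by 1.07 (SE 0.18) and Eng by 0.48 (SE 0.06) in the authors' deposited table, and Tgfbr2 (-1.0, SE 0.27) and Acvr2b (-0.25, SE 0.05) fell. Acvr1b was called as well, with a fall of 0.11 (SE 0.05) in the authors' deposited table. Again 5 of 10 receptors passed the threshold in the authors' deposited table, beside 42.6% of all 19979 genes. Here 2 were higher and 3 lower, where 20.5% of all genes were called higher and 22.0% lower. The median change of the 10 was -0.01, that of all genes -0.0016. The 4 receptors called in both conditions compare with 30.4% of the 19134 genes in both tables.

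Few of these changes were large, and the calls depend on how the spread is judged. One receptor in control cells (Tgfbr2) and 2 in paused cells (Tgfbr2 and Tgfbr3) were both called and changed at least 1.5-fold, beside 15.0% and 14.7% of all genes. The deposited statistics of all genes had a middle spread of 2.77 in control and 2.80 in paused cells, where 1 would be found if most genes did not change and the standard errors covered all variation. Dividing every statistic by that spread left 0 of 10 receptors called in either condition, beside 1.48% and 2.25% of all genes. At an unadjusted p under 0.05 there were then 3 receptors in control cells (Acvr2b, Tgfbr2 and Eng) and 2 in paused cells (Tgfbr3 and Eng), beside 9.40% and 10.5% of all genes. Shifting all changes so that the summed counts of the genotypes were equal moved the share of calls that were higher. It went from 47.1% to 60.5% in control cells and from 48.2% to 57.6% in paused cells. The log2 shifts were -0.055 and -0.035, smaller in size than any change of the 4 receptors called in both. Their directions could therefore not turn.

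**Figure D2:**
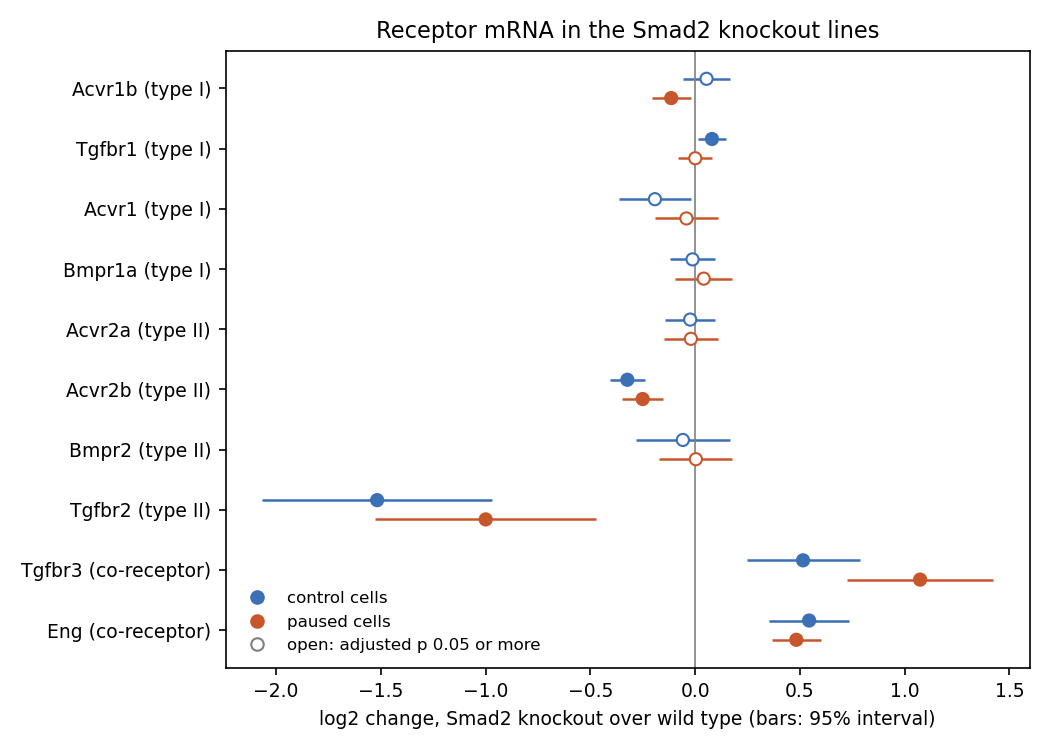
Change of each receptor in the Smad2 knockout lines: the horizontal axis gives the log2 change of knockout over wild type, with bars for the 95% interval from the deposited standard error, filled points for an adjusted p under 0.05 and open points otherwise. Tgfbr2 lies to the left of 0 in both conditions (-1.52 and -1.0), Acvr2b slightly so, Tgfbr3 and Eng lie to the right, and the other 6 receptors lie within 0.20 of 0.

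Among the type II receptors, Tgfbr2 showed the steepest fall. The gene lies at chr9:116084293-116175360 on the minus strand (GRCm38, as are all positions here) and codes for the receptor that recognises TGF-beta and recruits Tgfbr1. Its mRNA stood at 34.9% of the wild-type level in control cells (95% interval 23.9% to 51.1%) and at 50.0% in paused cells (34.7% to 72.1%). The authors' deposited tables list adjusted p-values of 6.22e-07 and 8.90e-04. The fibroblast markers Col1a1 (-2.79 and -3.53) and Col3a1 (-2.95 and -2.22) fell in the authors' deposited tables as well. Thy1, the fibroblast marker with the highest mean in paused cells, stood at -0.11 and 0.18 in the authors' deposited tables and was called in neither, and the part of such cells in the fall of Tgfbr2 was not tested. The change of Tgfbr2 lay at the 1.07th percentile of all changes in control cells and at the 2.38th in paused cells. The means in the authors' deposited tables, 63.7 and 102 normalized counts, are under the minimum of 230 and 222 tried as a filter on abundance, so the filtered analysis does not include the gene. That analysis called 4 receptors in control cells (Tgfbr1, Acvr2b, Tgfbr3 and Eng) beside 51.6% of genes, and 3 in paused cells (Acvr1b, Acvr2b and Eng) beside 53.0%.

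Acvr2b moved less but was measured more precisely. It lies at chr9:119402118-119434995 on the plus strand, and its product is a receptor for activins, Nodal and related ligands that pairs with Acvr1b. Its mRNA stood at 79.9% of the wild-type level in control cells (95% interval 75.4% to 84.7%) and at 84.1% in paused cells (78.6% to 89.9%). The authors' deposited tables give adjusted p-values of 9.83e-13 and 3.17e-06 at means of 3517 and 5383 normalized counts. Of all 10 receptors it had the smallest adjusted p in control cells, for a change of 1.25-fold.

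The other type II receptors were close to their wild-type level. Acvr2a, at chr2:48814109-48903269 on the plus strand, is a paralog of Acvr2b with overlapping ligands. It stood at 98.4% in control cells (95% interval 90.6% to 106.9%) and at 98.6% in paused cells (90.2% to 107.8%), with adjusted p-values of 0.792 and 0.836 in the authors' deposited tables. The intervals of Acvr2a and Acvr2b did not overlap in either condition, and the difference between the 2 genes was not tested. Bmpr2, at chr1:59763400-59879014 on the plus strand, stood at 96.0% in control cells (82.3% to 112.1%) and at 100.2% in paused cells (88.8% to 113.1%). Its adjusted p in the authors' deposited tables was 0.718 and 0.981.

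The upstream sequences of Tgfbr2 and Acvr2b are shown with that of Eng, since these 3 of the 4 receptors called in both conditions have a promoter in the RefSeq table (GRCm38.p6). Each is the 250 bases before the annotated start, 5′ to 3′ in the direction of transcription. Capitals mark CAGAC, the short box that Smad3 and Smad4 bind, on either strand (GTCTG on the other).
Tgfbr2: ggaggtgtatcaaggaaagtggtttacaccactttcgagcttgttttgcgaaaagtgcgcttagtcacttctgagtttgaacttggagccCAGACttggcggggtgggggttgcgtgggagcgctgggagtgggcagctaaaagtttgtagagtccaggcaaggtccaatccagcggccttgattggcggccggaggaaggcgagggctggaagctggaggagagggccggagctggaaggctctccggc
Acvr2b: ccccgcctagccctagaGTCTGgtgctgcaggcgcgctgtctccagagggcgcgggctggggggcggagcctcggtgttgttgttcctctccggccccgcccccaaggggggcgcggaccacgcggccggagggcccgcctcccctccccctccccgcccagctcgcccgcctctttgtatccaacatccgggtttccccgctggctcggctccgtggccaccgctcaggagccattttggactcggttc
Eng: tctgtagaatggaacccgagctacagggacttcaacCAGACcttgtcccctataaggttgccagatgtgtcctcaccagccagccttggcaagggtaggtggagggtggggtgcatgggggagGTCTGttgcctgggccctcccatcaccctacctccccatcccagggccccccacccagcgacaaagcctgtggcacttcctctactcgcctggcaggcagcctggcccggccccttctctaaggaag

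They lie at chr9:116175364-116175613 on the minus strand (Tgfbr2), chr9:119401928-119402177 on the plus strand (Acvr2b) and chr2:32646345-32646594 on the plus strand (Eng). Over the 9 receptors with a promoter, 4 held CAGAC on either strand (Eng, Tgfbr2, Acvr2b and Acvr2a), as did 42.1% of all 27025 promoters of this length. GGCGC, a GC-rich element that Smads can bind, was found in 7 of 9 and in 32.1% of all, and GGGCGG, the box of Sp factors, in 7 of 9 and in 32.9% of all. The motifs GGCGC and GGGCGG share the letters GGCG and can overlap. Neither was present in the promoters of Tgfbr2 and Eng, which held 12 and 4 CpG dinucleotides, while that of Acvr2b held 24. The receptors' promoters were rich in G and C, from 58.4% (Tgfbr2) to 85.6% (Acvr1), where the median of all promoters was 52% with 6 CpG, and the motif shares were not matched for this. The letters ATCCACA, bound by the Smad2 partner Foxh1, and TATAAA, the TATA box, were found in 0 of the 9 on either strand, and in 2.85% and 13.0% of all promoters.

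Both co-receptors rose in both conditions. Eng lies at chr2:32646595-32682669 on the plus strand and codes for endoglin, a surface glycoprotein that binds BMP9, BMP10 and, with Tgfbr2, TGF-beta. Its mRNA stood at 145.8% of the wild-type level in control cells (95% interval 127.8% to 166.4%) and at 139.8% in paused cells (128.9% to 151.5%). The authors' deposited tables give adjusted p-values of 2.49e-07 and 1.32e-14 at means of 2267 and 2493 normalized counts. Tested for a change beyond 1.2-fold, Eng passed in both conditions, Tgfbr2 in control cells and Tgfbr3 in paused cells, beside 10.6% of all genes in each condition.

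Tgfbr3, at chr5:107106570-107289629 on the minus strand, codes for betaglycan, which presents TGF-beta 2 to Tgfbr2 and lets inhibin compete with activin for type II receptors. It was a less abundant gene, with means of 237 and 183 normalized counts in the authors' deposited tables. Its mRNA stood at 142.9% of the wild-type level in control cells (95% interval 118.5% to 172.3%) and at 210.5% in paused cells (165.3% to 268.0%). The authors' deposited tables list adjusted p-values of 8.58e-04 and 1.96e-08. The paused mean of 183 lies under the filter on abundance, so that the filtered analysis leaves the gene out in paused cells. The 5 of 6 primitive endoderm markers that were called higher moved the same way as Eng and Tgfbr3, and the part of such cells in the rise was not tested. In bulk samples more cells that express a gene and more RNA per cell cannot be told apart.

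The type I receptors were within 0.20 of 0 on the log2 scale in both conditions. On the Smad2 and Smad3 route, Tgfbr1 (chr4:47353222-47414931, plus strand) stood at 105.7% of the wild-type level in control cells (95% interval 100.9% to 110.8%) and at 100% in paused cells (94.5% to 105.9%). Its adjusted p in the authors' deposited tables was 0.0464 in control and 0.992 in paused cells. Acvr1b (chr15:101174067-101213684, plus strand), the type I receptor for Nodal and activins, stood at 103.8% in control cells (96.2% to 112.1%) and at 92.4% in paused cells (86.6% to 98.6%). The authors' deposited tables give it adjusted p-values of 0.469 and 0.0413. The paused call of Acvr1b did not pass with equal summed counts (adjusted p 0.182, range over its alternatives 0.0339 to 1) or with the median change set to 0.

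On the BMP route, Bmpr1a (chr14:34410734-34503341, minus strand) stood at 99.2% of the wild-type level in control cells (95% interval 92.1% to 106.7%) and at 102.9% in paused cells (93.6% to 113.1%). Acvr1 (chr2:58388644-58567157, minus strand), which serves BMPs and some activins, stood at 87.5% in control cells (77.8% to 98.5%) and at 97.2% in paused cells (87.5% to 107.9%). The adjusted p of Acvr1 in the authors' deposited tables was 0.063 and 0.70. The 4 type I receptors therefore lay between 87.5% and 105.7% of wild type in control cells and between 92.4% and 102.9% in paused cells, the 4 type II receptors between 34.9% and 98.4% and between 50.0% and 100.2%, and the 2 co-receptors between 142.9% and 145.8% and between 139.8% and 210.5%.

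Whether pausing altered the effect of the Smad2 knockout was tested per gene as the paused change minus the control change over the combined standard error, two-sided. None of the 10 receptors passed: 0 had a Benjamini-Hochberg adjusted p under 0.05 over the 19134 genes in both tables, where 1.44% of genes did. At an unadjusted p under 0.05 there were 2, Tgfbr3 and Acvr1b, beside 12.9% of all genes. The difference for Tgfbr3 was 0.56 (SE 0.23, 95% interval 0.12 to 1.00, p 0.0131, adjusted p 0.220), a larger rise in paused cells. For Acvr1b it was -0.17 (SE 0.07, -0.31 to -0.02, p 0.0229, adjusted p 0.286).

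The other 8 intervals held 0. The widest was that of Tgfbr2, whose difference of 0.52 had an interval of -0.24 to 1.28. The closest bounds were those of Tgfbr1, -0.19 to 0.03 around -0.08, and of Acvr2b, -0.05 to 0.20 around 0.07. For Eng the interval ran from -0.28 to 0.16, for Acvr2a from -0.17 to 0.18, for Bmpr1a from -0.12 to 0.23, for Bmpr2 from -0.22 to 0.35 and for Acvr1 from -0.08 to 0.38. The plot of the differences shows the precision of each receptor beside the others.

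**Figure D3:**
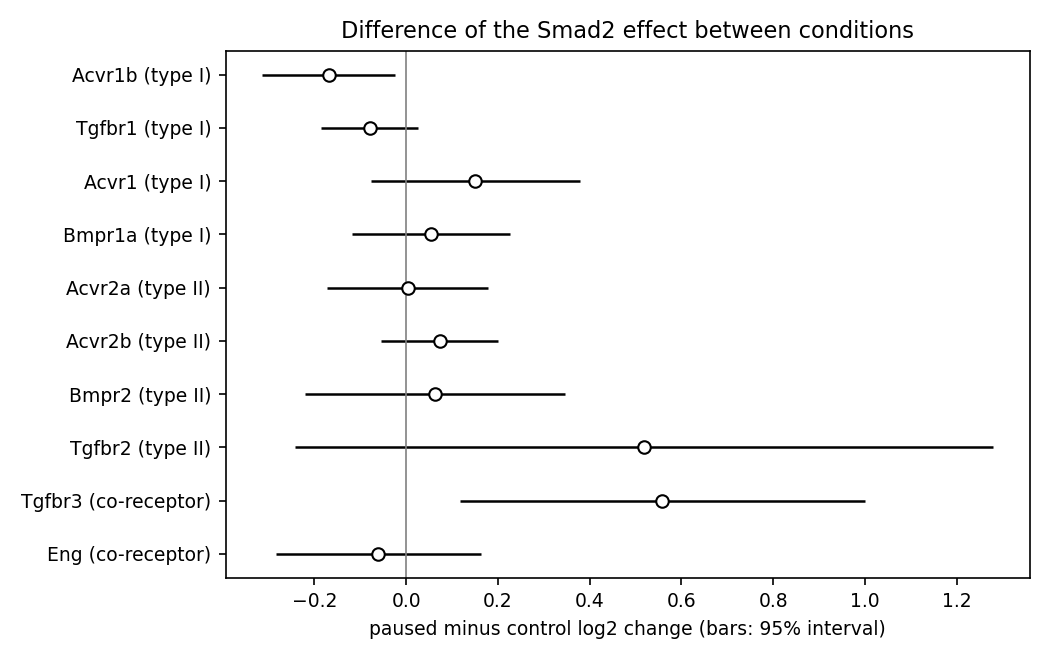
Difference of the Smad2 effect between conditions: the horizontal axis gives the paused minus the control log2 change of each receptor, with bars for the 95% interval from the combined standard errors; open points mark that no adjusted p is under 0.05. The intervals of Tgfbr3 (0.12 to 1.00) and Acvr1b (-0.31 to -0.02) leave out 0, and that of Tgfbr2 is the widest (-0.24 to 1.28).

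The genes that act around the receptors were described with 8 lists of 89 genes, 83 of which were in both tables. Their counts are to be read against all genes, of which 41.4% were called in control cells (19.5% higher, 21.9% lower) and 42.6% in paused cells (20.5% higher, 22.0% lower). Of the 4 other receptors of the family, Acvrl1, Bmpr1b and Amhr2 were present at means of 52.9 to 123 normalized counts in the authors' deposited tables. Bmpr1b, a BMP type I receptor, fell, with changes of -0.57 (SE 0.19) in control and -0.55 (SE 0.20) in paused cells by the authors' deposited tables. Acvrl1 (0.38 and 0.27) and Amhr2 (0.05 and 0.23) were not called in either condition by the authors' deposited tables. With equal summed counts 1 gene of this list was called higher in each condition. Of all genes, 4763 of 19778 in control and 4731 of 19979 in paused cells were then called higher. With the median change set to 0 the list had 1 and 2 called higher, beside 4723 and 4983 of all genes. Among 7 co-receptors and decoys, 3 were called higher and 2 lower in control cells (median 0.25), and 2 higher and 3 lower in paused cells (median -0.08), 5 of 7 in each. Rgma and Rgmb, anchored BMP co-receptors, went opposite ways: Rgma rose by 0.43 (SE 0.11) and 0.67 (SE 0.11), and Rgmb fell (-0.55, SE 0.12, and -0.70, SE 0.07) in the authors' deposited tables. Cd109, a TGF-beta co-receptor that dampens signalling, fell (-0.94, SE 0.14, and -1.28, SE 0.17), and Bambi, a decoy without a kinase, rose by 0.31 (SE 0.07) and 0.23 (SE 0.08) in the authors' deposited tables.

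Of the 18 ligands present, 5 were called higher and 5 lower in control cells (median 0.02), and 2 higher and 6 lower in paused cells (median -0.14), in all 10 and 8 of 18 beside 41.4% and 42.6% of all genes. Both Tgfb2 (-2.08, SE 0.45, and -1.80, SE 0.40) and Tgfb1 (-0.80, SE 0.15, and -0.65, SE 0.13), ligands that signal through Tgfbr2, fell in the authors' deposited tables. Bmp4, a BMP made by the stem cells themselves, fell (-0.50, SE 0.10, and -0.56, SE 0.09) in the authors' deposited tables. Inhbb, the activin B subunit, rose by 0.56 (SE 0.22) in the authors' deposited control table and stood at 0.41 (SE 0.23, not called) in the paused one. Inhba, the activin A subunit, fell (-3.69, SE 0.82, and -3.91, SE 0.73) in the authors' deposited tables. Its means there, over wild type and knockout, were only 4.95 and 5.53 normalized counts. Among 13 secreted antagonists, 2 were called higher and 4 lower in control cells, and 3 higher and 5 lower in paused cells, in all 6 and 8 of 13 beside the same shares of all genes. Follistatin (Fst), which traps activins, fell (-1.99, SE 0.29, and -1.42, SE 0.34), whereas its relative Fstl3 rose by 0.66 (SE 0.18) and 1.19 (SE 0.21) in the authors' deposited tables. Lefty1 and Lefty2, inhibitors of Nodal and themselves targets of the pathway, fell most among the antagonists, by the authors' deposited tables: -2.52 and -3.34 for Lefty1, -2.89 and -3.13 for Lefty2.

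Inside the cell, 21 regulators of the receptors gave 5 higher and 7 lower calls in control cells and 3 higher and 6 lower in paused cells, in all 12 and 9 of 21 beside 41.4% and 42.6% of all genes. With equal summed counts these were 6 and 6, and 8 and 6, beside 39.8% and 41.1% of all genes called. The balance of calls in paused cells thus turned with the scaling. It also did so over all genes, where 48.2% of calls were higher before and 57.6% after. Smad6, an inhibitory Smad of the BMP route, rose by 0.57 (SE 0.10) and 0.67 (SE 0.06), while Smad7, which blocks both routes, fell (-0.33, SE 0.07, and -0.44, SE 0.06) in the authors' deposited tables. Nedd4l, a ubiquitin ligase that can act on Smad2 and Tgfbr1, rose by 0.62 (SE 0.08) and 0.62 (SE 0.06), and the endocytic adaptor Dab2 by 0.66 (SE 0.16) and 0.62 (SE 0.12) in the authors' deposited tables. Among the 6 Smad effectors, Smad9 of the BMP route rose by 1.22 (SE 0.20) and 1.28 (SE 0.19), and the shared partner Smad4 fell (-0.19, SE 0.04, and -0.20, SE 0.05) in the authors' deposited tables. Smad3 rose by 0.26 (SE 0.06) in the authors' deposited control table and stood at -0.21 (SE 0.09, not called) in the paused one.

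Downstream, the targets of the 2 routes were mostly called in opposite directions. Of 14 Nodal and activin targets, 10 were called lower and 1 higher in control cells (median -0.79), and 10 lower and 0 higher in paused cells (median -0.38), where 21.9% and 22.0% of all genes were called lower. T, a mesoderm factor, had changes of -4.66 (SE 0.48) and -3.86 (SE 0.43) in the authors' deposited tables. Of the 5 and 4 fibroblast markers present, 4 and 3 were called lower as well, while Thy1 was called in neither condition. The part of such cells in the fall of the Nodal and activin targets was not tested. Of 12 BMP targets, 10 were called higher and 1 lower in each condition, with medians of 0.51 and 0.73, where 19.5% and 20.5% of all genes were called higher. The primitive endoderm markers (5 of 6 called higher in each condition) moved the same way. They summed to 486 and 570 normalized counts in the authors' deposited tables. Of the 6 trophoblast markers, Gata3 (1.54 and 2.04) alone was called higher in the authors' deposited tables. By the authors' deposited tables, Cdx2 (-0.84 and -0.92) was called lower in both conditions and Eomes (-0.94) in control cells. Krt8 (-0.78 and -0.44 in the authors' deposited tables) was not called. The part of primitive endoderm and trophoblast cells in the rise of the BMP targets was not tested. Hand1 rose by 1.95 (SE 0.18) and 2.69 (SE 0.26), Msx2 by 1.01 (SE 0.16) and 1.17 (SE 0.17), and Id1 by 0.43 (SE 0.07) and 0.91 (SE 0.07) in the authors' deposited tables. Acvr1b, Tgfbr1, Acvr1 and Bmpr1a stayed within 0.20 of 0 on the same log2 scale, while Bmpr1b fell. Smad6, Smad7, Smad9, Bambi, Lefty1, Lefty2, Fst, Nodal, Tdgf1 and Pmepa1 stand in more than 1 list and are counted in each.

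**Figure D4:**
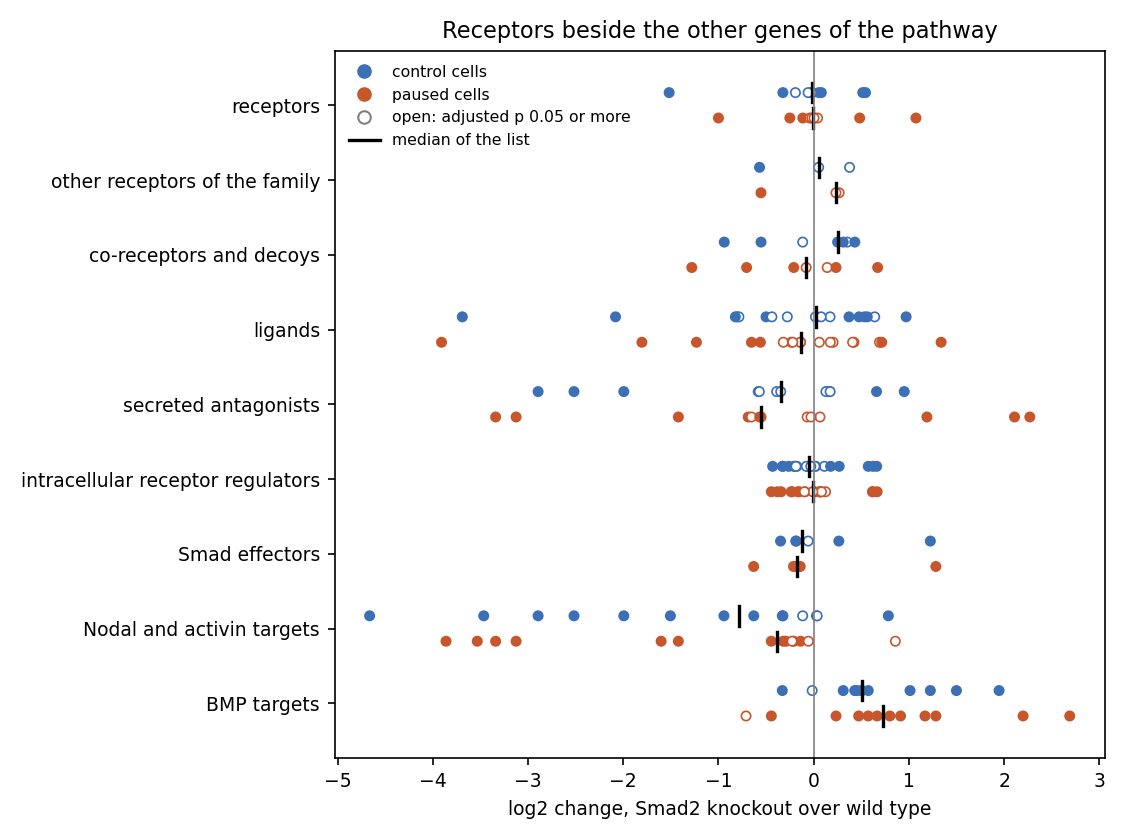
Receptors beside the other genes of the pathway: the horizontal axis gives the log2 change of knockout over wild type, each point is 1 gene of the list named at the left, filled points have an adjusted p under 0.05, and black ticks mark the median of each list. The receptors spread from -1.52 to 1.07 around medians near 0, the Nodal and activin targets lie mostly to the left (medians -0.79 and -0.38) and the BMP targets to the right (0.51 and 0.73).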

How the data were processed

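Per the submitters' processing notes, FastQC, Trim Galore, HISAT2, featureCounts and DESeq2 were used with mm10, with no versions; the annotation, the use of strand and the libraries in each comparison are not given in the sources used here. Per the file headers, the authors deposited for each gene the mean normalized count (a signal), a log2 change with its standard error on the log2 scale, a statistic (a score) and a p-value with its adjusted form. The statistic was checked to be the change over its standard error, and the adjusted p-values that the authors deposited were recomputed to within 1 percent. The values are results and not counts, so no library was refitted.

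Computed here were 95% normal intervals, the difference between conditions (two-sided normal p, Benjamini-Hochberg over all 19134 genes, tested on simulated data), levels per kb of the union of GENCODE M21 exons, and motif matches. A gene was called at an adjusted p under 0.05. Group sizes of 4 and 8 were assumed for equal summed counts and for wild-type estimates. Named were all receptors, Smad2 and, per list, up to 4 called genes of mean 50 or more, by largest change; 1 gene that the rule names is not reported here. Neo1, Bmper, Usp15, Eomes, Id2, Id3, Id4 and Inhba lie outside this rule and were chosen after their values were seen. Acvrl1, Amhr2 and the cell type markers given by name also lie outside it. The members and lists were chosen with earlier results of these data known. Python 3.11.15, numpy 2.4.6, scipy 1.17.1, pandas 2.3.3 and Biopython 1.88 were used. Alternatives are given in the closing section.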

Additional observations from a re-analysis of the deposited data

Results flagged for a closer look

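For 0 of the 10 receptors did the test of the difference between conditions pass, but for 7 of the 83 pathway genes it did (adjusted over 19134 genes, of which 1.44% passed). Id1, a target of BMP receptors, rose by 0.43 (control) and 0.91 (paused) in the authors' deposited tables, a difference of 0.48 (SE 0.10, adjusted p 3.57e-04). Id3 rose by 0.45 and 0.80 in the authors' deposited tables, a difference of 0.35 (SE 0.08, adjusted p 0.00177). For the other Id genes of the list the difference did not pass (Id2 0.07, adjusted p 0.897, and Id4 -0.03, adjusted p 0.975). Usp15, a deubiquitinase that acts on type I receptors and Smads, stood at -0.26 (control, called) and 0.01 (paused, not called) in the authors' deposited tables (difference 0.27, SE 0.05, adjusted p 1.11e-04).

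Smad3, a substrate of Acvr1b and Tgfbr1, stood at 0.26 (control, called) and -0.21 (paused, not called) in the authors' deposited tables, a difference of -0.48 (SE 0.11, adjusted p 0.00604). Neo1, a receptor that binds Rgma and Rgmb, stood at 0.25 (control, called) and -0.08 (paused, not called) in the authors' deposited tables (difference -0.33, SE 0.09, adjusted p 0.0151). Eomes, a Nodal target, stood at -0.94 (control, called) and -0.06 (paused, not called) in the authors' deposited tables (difference 0.89, SE 0.25, adjusted p 0.0326). Bmper, a secreted BMP modulator, rose by 0.95 and 2.27 in the authors' deposited tables (difference 1.32, SE 0.38, adjusted p 0.0380). Its means there, over wild type and knockout, were 25.3 and 44.6 normalized counts. After every statistic was divided by the middle spread of 1.23, Id1 and Usp15 passed and the other 5 did not. Of all genes 0.183% then passed. Tested for a difference beyond 1.2-fold, 0 of the 7 passed (adjusted p 1 for each, lowest over the alternatives 7.40e-05 for Usp15), beside 0.0105% of all genes. With a difference of at least 1.5-fold also asked for, Bmper and Eomes passed, beside 0.376% of all genes.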

How the results depend on the processing

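Of the 10 receptors, 5 were called in control cells, and 2 when tested for a change beyond 1.2-fold, 1 when a 1.5-fold change was also asked for and 0 after division of the statistic by its middle spread. In paused cells 5 were called, and 2, 2 and 0 under the same alternatives. With the minimum on abundance, which leaves out Tgfbr2 and Tgfbr3 there, 3 were called. The calls of pathway genes in control cells went from 52 to 20 (1.2-fold test), 23 (1.5-fold), 6 (scaled) and 34 (minimum on abundance). In paused cells they went from 47 to 29, 29, 10 and 31. The minimum takes genes out of the lists, and a gene left out counts as not called. Its counts are thus over fewer genes, and how many were left is not given. Over all genes the shares called under these alternatives were 10.6%, 15.0%, 1.48% and 51.6% in control and 10.6%, 14.7%, 2.25% and 53.0% in paused cells. At an adjusted p under 0.01, 4 receptors were called in each condition, beside 30.9% and 32.3% of all genes. The calls of Tgfbr1 in control cells and of Acvr1b in paused cells were then lost. For 0 of 10 receptors did the test of the difference pass under any alternative run. Of all genes, between 0.0105% (1.2-fold test) and 2.93% (minimum on abundance) passed under these alternatives, so 0 of 10 is near the share of any gene. Signs turned for uncalled values alone, with equal summed counts or with the median change set to 0: Bmpr1a in control cells (0.0428 and 0.0410), Acvr2a in control cells (0.0317 and 0.0299), in paused cells (0.0151 and 0.0269) and in the difference (-0.0165 and -0.0029), and Acvr1 in paused cells (0.0056, median set to 0). With the median change set to 0, the median of the 10 receptors was 0.0355 in control and 0.0374 in paused cells. The order of levels per kb in paused cells kept 6 of 10 receptors in place when the wild-type level was estimated alone. That estimate takes the change as knockout over wild type and was not made with the opposite reading. In control cells 8 of 10 kept their place with the longest transcript's length. No paired analysis was possible because the tables hold no value per library, and leaving out each replicate was not run for the same reason. The cause of these shifts was not tested beyond what each alternative does.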

Other observations

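The mean level of the receptors, over wild type and knockout, differed between the tables for some members. As a share of all normalized counts, Acvr1b was 2.06 times as high in the paused table as in the control one. Tgfbr2 had a ratio of 1.66, Acvr2b of 1.59 and Acvr2a of 1.38, while Bmpr1a had 0.848 and Tgfbr3 0.802. Over all 19134 genes in both tables the median ratio was 1.06, and 90 percent of ratios lay between 0.494 and 2.36. The tables were normalized separately and hold no error for a mean, so these ratios were not tested.

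The standard errors set the receptors apart in another way. In control cells the standard error of Tgfbr1 was 0.595 of the median of the 500 genes nearest in mean count, and only 0.4 percent of those genes had a smaller one. That of Eng was 1.65 times the median of its neighbours, that of Bmpr2 1.6 times and that of Tgfbr2 1.51 times. In paused cells the ratios were 1.78 for Tgfbr2, 1.51 for Bmpr1a and 1.5 for Tgfbr3. Without the libraries, a spread between the knockout lines and a spread between replicates cannot be told apart.

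Exons of 2 receptors overlap a measured gene on the opposite strand: 446 bases of Acvr2a (7.84% of its exon length) overlap Orc4, and 61 bases of Eng (1.51%) overlap Fpgs. Whether reads there were assigned by strand is not given in the sources used here.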
